A study of Mus musculus with 20 samples.

Results

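Cells sorted as neutrophils from a pancreatic tumor were compared with those sorted from the blood of tumor mice, over every gene with a count. The comparison takes 8 of the 20 RNA-seq libraries of the series, namely the 4 labelled as neutrophils from tumor and the 4 labelled as neutrophils from blood of mice with the disease state Tumor. The mice modelled pancreatic ductal adenocarcinoma (PDAC), for which KPC cells were injected into the abdominal cavity or the pancreas. KPC cells are a line from mouse pancreatic tumors of C57BL/6 mice, in which mutant alleles were directed to the pancreas by Pdx1-Cre. Both groups came from tumor mice labelled C57BL/6 (C57BL/6J per the study's methods) at 10 days post inoculation (d.p.i.), and the same sort of live, single CD11b-high Ly6G-high cells was used for both. Blood was drawn by cardiac puncture before the mice were perfused, and the tumor was taken after it. A piece of tumor was digested with collagenase and DNAse at body temperature, a step that blood did not undergo, so tissue and preparation cannot be told apart. Red cells in the blood were lysed, a step that the methods do not list for tumor. The other libraries, 4 each from liver and brain of tumor mice and from blood of sham mice, shared the estimate of spread in the fit. The labels do not tie libraries to mice, and p-values measure the spread between these samples.

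Neutrophils are short-lived granulocytes that leave the bone marrow fully armed. They carry preformed granules of enzymes and antimicrobial proteins, roll on vessel walls by selectins, arrest by β2 integrins, and follow chemoattractants through G protein-coupled receptors such as CXCR2. In tissue they can make chemokines and cytokines of their own and release extracellular traps (NETs), and in tumors they meet low oxygen, dying cells and other myeloid cells.

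The 8 libraries held 47388245 to 52785620 counts, with a median of 51476287 in tumor and 49240322.5 in blood (values are whole read counts per gene, with no molecular identifiers). Replicates of a group differed by more than the sampling noise of their counts. The tumor libraries of replicates 1 and 3 stood apart by the number of genes with a count, 19368 and 19594, against 17308 and 17238 in the tumor libraries of replicates 2 and 5, while blood libraries had 15418 to 16577. Tumor libraries were sequenced in lanes 2, 3 and 5 and blood libraries in lanes 1 and 4, so no lane held both groups and no within-lane value could be had. Levels below are TMM-scaled CPM, a gene's counts relative to the total counts of its library times the TMM factor of that library. They are listed in the order of replicates 1, 2, 3 and 5 for tumor and 1 to 4 for blood. In that order the TMM factors were 1.34, 1.30, 1.40 and 1.17 in tumor, against 0.92, 0.93, 0.96 and 0.95 in blood. Compared with plain shares of the counts, these factors lower tumor against blood for every gene. Fold changes without such scaling were not tested. Levels of different genes are not set against each other, since CPM is not corrected for gene length.

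Of 51912 genes, 28762 had a count in at least 1 of the 20 libraries and were tested with edgeR's quasi-likelihood test. Calls took an adjusted p under 0.05 and a log2 fold change of at least 2 in size. In the tumor libraries, 2732 genes (9.5%) were called higher and 940 (3.27%) lower than in the blood libraries. Of the called genes, 74.4% were higher in tumor. Tumor-infiltrating neutrophils below means the libraries by their sort and label, and these also held transcripts of other cell types. Blood had no count at all for 948 of the higher genes, and tumor had none for 142 of the lower ones. Among abundant genes, those averaging 50 CPM or more in either group, 340 were called higher and 390 called lower with no overlap between the 4 tumor and the 4 blood libraries. Over all tested genes, the 4 tumor libraries lay above the 4 blood libraries for 15.3% and below them for 11.3%. Without the fold threshold, 3833 genes (13.3%) passed as higher and 2973 (10.3%) as lower, and these shares are the background for the gene lists below, whose members were counted at an adjusted p under 0.05. Of the 13170 genes with at least 1 CPM in the higher group, 2377 were called higher and 786 lower with the fold threshold. Those are larger shares than over all tested genes, so this background is low for lists of well-expressed genes. The median log2 fold change over the 13170 genes with at least 1 CPM in the higher group was 0.24, and scaling by the size factors of DESeq2 raised the log2 fold changes by a median of 0.13 and gave 2962 higher and 824 lower genes. Without the tumor libraries of replicates 1 and 3 there were 1598 higher and 595 lower genes. Lane as a term left 1665 higher and 671 lower.

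**Figure D1:**
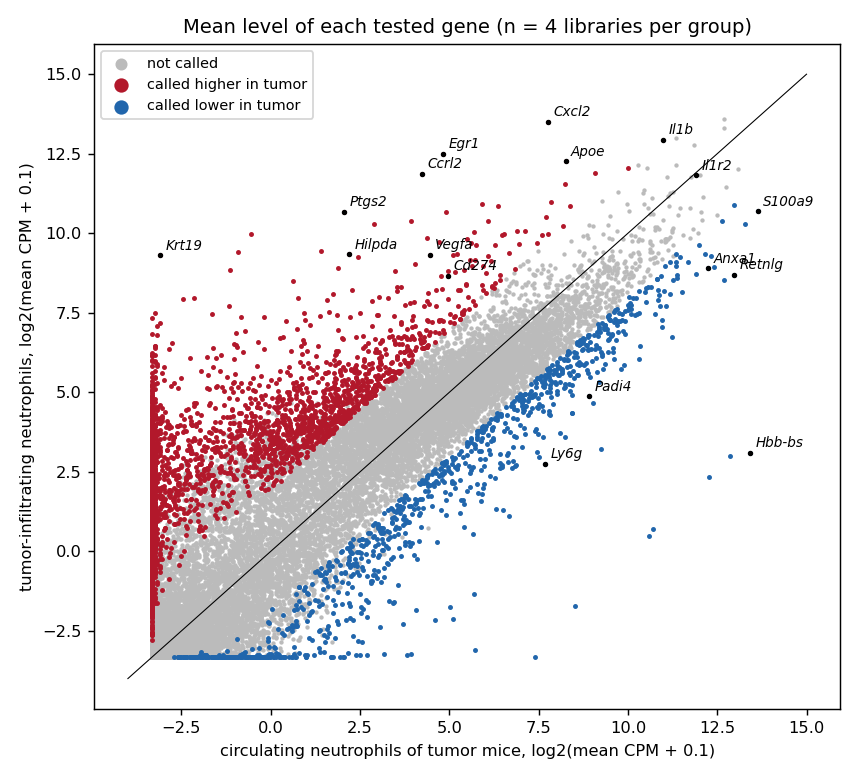
Mean level of each tested gene in tumor-infiltrating neutrophils (vertical axis) against circulating neutrophils of tumor mice (horizontal axis), both as log2(mean CPM + 0.1) over 4 libraries, with the line of equal levels. Red points are the 2732 genes called higher in tumor, blue points the 940 called lower and gray points the rest, and black points with names are genes described in the text. Cxcl2, Ccrl2, Egr1 and Krt19 lie far above the line and Ly6g, Padi4 and Hbb-bs far below it, while Il1r2 lies near it.

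The sorted surface proteins were checked first at the RNA level. Ly6g, which encodes the neutrophil surface protein used for the sort (ENSMUSG00000022582, mm10 chromosome 15, 75155240 to 75159126), had 1.43, 9.28, 2.72 and 13.2 CPM in tumor, against 316, 188, 195 and 117 CPM in blood. It was lower in the tumor libraries (log2 fold change -4.94 ± 0.56 SE, adjusted p = 1.05e-06), and every tumor library lay below every blood library. Itgam, which encodes CD11b, the other sorted protein, had 263, 286, 270.0 and 356 CPM in tumor, against 486, 474, 449.9 and 346 CPM in blood, and was lower in tumor (log2 fold change -0.58 ± 0.15 SE, adjusted p = 0.00725), although tumor replicate 5 lay above blood replicate 4. The call of Itgam was not past the threshold with lane added to the fit, over the 8 libraries alone or without tumor replicates 1 and 3 together, adjusted p = 0.0553 to 0.228. Of the 24 genes that mark neutrophils, 2 were higher and 20 lower in tumor, with a median log2 fold change of -2.23. Their summed level was 10149, 21548, 12453 and 25601 CPM in tumor, against 85126, 73250.5, 73913 and 63084 CPM in blood. Neutrophil transcripts were present in every tumor library, at a lower summed level than in every blood library, and within the tumor group replicates 2 and 5 had the higher sums. In bulk RNA, fewer cells of a type and less RNA of that type per cell cannot be told apart.

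S100a8 and S100a9 encode the 2 subunits of calprotectin, the abundant cytosolic protein of neutrophils. S100a8 had 671, 1585, 808 and 1980.1 CPM in tumor, against 12048, 9848, 9699 and 8024 CPM in blood (log2 fold change -2.97, adjusted p = 7.57e-07). S100a9 had 878, 1985, 1022 and 2761 CPM in tumor, against 16941, 12238, 11593 and 9895 CPM in blood (log2 fold change -2.93, adjusted p = 1e-06). Both fell without overlap, as did Retnlg, a resistin-like secreted protein of mouse neutrophils, which had 68.8, 409, 284 and 892 CPM in tumor, against 7959, 7853, 8336 and 7908 CPM in blood (log2 fold change -4.28 ± 0.47 SE, adjusted p = 7.69e-07). The tumor library of replicate 5 was the highest of the tumor group for all 3 of these genes and still below every blood library. G0s2, an inhibitor of the fat-splitting enzyme ATGL, rose among the identity genes, with 1202, 2603, 1285 and 2338 CPM in tumor, against 59.4, 168, 37.1 and 64.99 CPM in blood (log2 fold change 4.50 ± 0.46 SE, adjusted p = 2.78e-07). The only other identity gene to rise was Trem1, a receptor that amplifies inflammatory signals (log2 fold change 1.09, with 983 ± 418 CPM in tumor and 462 ± 47.6 CPM in blood; SD, n = 4 each). Il1r2, the decoy receptor for interleukin 1, and Clec4e, a receptor for mycobacterial cord factor, did not pass the test. Il1r2 averaged 3606 ± 1613 CPM in tumor and 3873 ± 2074 CPM in blood (log2 fold change -0.10, standard error 0.46).

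Transcripts of other cell types differed between the groups in opposite directions. The summed level of 15 macrophage and monocyte genes was 11069.6, 10129, 9883 and 6855 CPM in tumor, against 1374, 1279, 1566 and 1768 CPM in blood, with 12 members higher and 1 lower, and no member was at 0 in a whole group. In the same tumor libraries the 24 neutrophil genes summed to 10149, 21548, 12453 and 25601 CPM. Sums of different lists are not corrected for gene length. The 11 epithelial genes, which mark the KPC tumor cells, summed to 1173 to 3949 CPM in tumor, against 173 to 289 CPM in blood, with 10 higher and 1 lower. The 12 fibroblast and pericyte genes summed to 1016, 33.996, 419 and 57.04 CPM in tumor, against 10.6, 5.79, 4.43 and 3.54 CPM in blood, with 10 higher and none lower (4 higher without tumor replicates 1 and 3, 5 without tumor replicate 1, without blood replicate 2 or with lane as a term, and 6 without blood replicate 3 or 4 or with the replicate block), and 5 of them had no count in blood. Tumor replicates 1 and 3 held most of the fibroblast transcripts, and tumor replicate 5 had the lowest macrophage and epithelial sums of its group. The 8 erythroid genes tested summed to 2.74, 5.99, 27.9 and 60.5 CPM in tumor, against 5259.9, 12599, 21904 and 66924 CPM in blood, with 7 lower in tumor, and 9 of the 10 platelet genes were lower as well (37.1 to 223 CPM in tumor, against 105 to 628 CPM in blood). Endothelial genes (6 were higher and 0 lower of 11), acinar genes (6 were higher and 0 lower of 10) and dendritic cell genes (2 were higher and 0 lower of 10) stayed at sums under 100 CPM in each library. With lane as a term 2 endothelial and 1 acinar gene were higher. The higher endothelial genes also numbered 2 without tumor replicates 1 and 3, and the higher acinar genes 1 with the replicate block, 3 with filterByExpr or without blood replicate 4, and 2 without tumor replicate 5 or blood replicate 1, 2 or 3. Of 11 T and NK cell genes 0 were higher and 1 lower, and of 9 B cell genes 0 were higher and 2 lower (6 lower without tumor replicate 1, 5 without replicates 1 and 3, and 4 in DESeq2). The part of these cells in the results below was not tested.

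**Figure D2:**
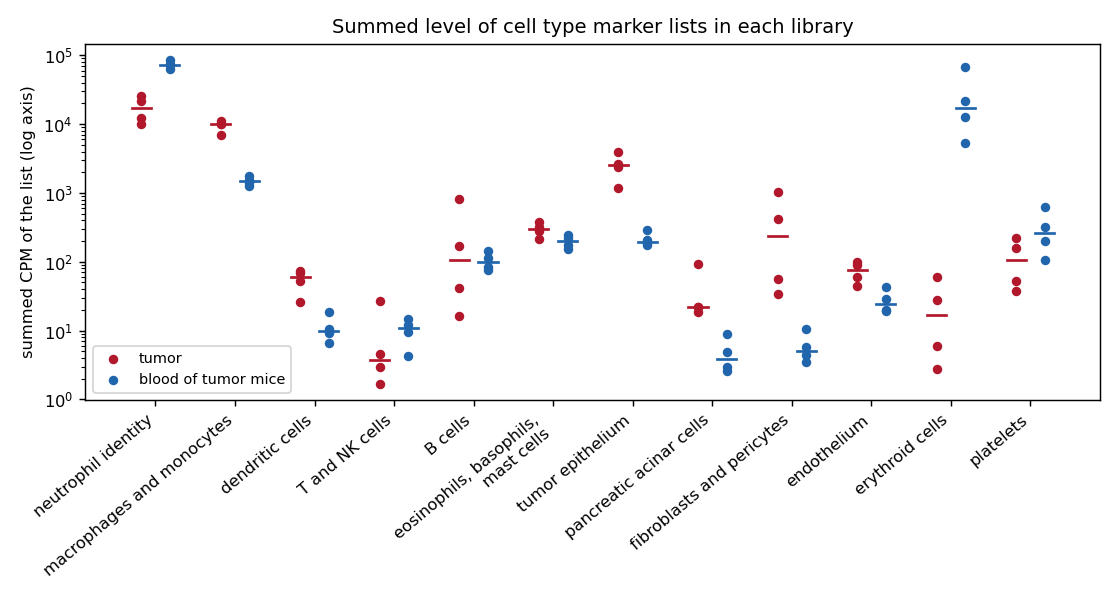
Summed CPM of each cell type marker list in each library on a log axis, tumor libraries in red on the left and blood libraries of tumor mice in blue on the right of each pair, with a bar at the group median. The neutrophil sum lies between 10149 and 25601 CPM in tumor, against 63084 to 85126 CPM in blood, while macrophage, epithelial and fibroblast sums are higher in tumor and the erythroid sum is higher in blood.

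Most of the 12 largest rises belonged to epithelium and matrix. Krt19, a keratin of ductal epithelium, had 639, 648, 1011 and 242 CPM in tumor, against 0.0436, 0, 0.0221 and 0 CPM in blood. It rested on 3 counts in blood, a ratio of tumor over blood of 40779, with a 95% exact counting interval of 13954 to 197743 (intervals cover counting error only). Krt8, a type II keratin of simple epithelia that was not among the 12, had 650.2, 704, 1054 and 312 CPM in tumor, against 0.545, 0.528, 0 and 0.626 CPM in blood (log2 fold change 10.63 ± 1.37 SE, adjusted p = 4.93e-06). Both lay above every blood library in each tumor library, and tumor replicate 5 was the lowest of the 4. Col3a1, a fibrillar collagen of connective tissue, had 333, 16.98, 100.2 and 6.55 CPM in tumor, against 0, 0, 0 and 0 CPM in blood, which is at least 7255-fold higher against a floor of 3 counts over the blood group. Its level was high in tumor replicates 1 and 3 and far lower in replicates 2 and 5. Dmbt1, a mucosal glycoprotein (at least 10452-fold higher), Clca1, a secreted protein of mucous cells (at least 4811-fold), Elf3, an epithelial transcription factor (at least 4532-fold), Ctgf, a matrix-associated growth factor (at least 4211-fold), Gsta4, a glutathione transferase (at least 4068-fold), and Col18a1, a basement membrane collagen (at least 3661-fold), had no count in any blood library (with lane as a term, Clca1 was not past the threshold). Dpcr1, a mucin-like protein, Cldn18, a tight junction protein, and Fbln2, a matrix protein, had 1 count in blood each and were also among the 12.

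Of the 12 largest falls, most belonged to red cells and platelets. Hbb-bs, an adult β-globin, had 0.864, 1.66, 10.8 and 20.5 CPM in tumor, against 2022, 4787, 8940.2 and 28134 CPM in blood (log2 fold change -10.34 ± 1.07 SE, adjusted p = 3.27e-07). Alas2, the first enzyme of erythroid heme synthesis, had 0.208, 0.0583, 1.42 and 4.42 CPM in tumor, against 201, 645, 1392 and 4367 CPM in blood (log2 fold change -10.09 ± 1.12 SE, adjusted p = 7.69e-07). Blood replicate 4 was the highest for both genes and blood replicate 1 the lowest, and all tumor libraries lay below. Hbb-bt, Hba-a1 and Hba-a2 (near-identical globin copies, whose shares of reads are uncertain), Slc4a1 and Bpgm, all abundant in red cells, and Itga2b and Nrgn, both found in platelets, fell by 11.54 (Slc4a1) down to 5.62 (Itga2b) on the log2 scale. Apol11b, an apolipoprotein L family gene, had no count in tumor and 32.2, 147, 158 and 342 CPM in the blood libraries, at least 15175-fold lower. Scrg1 had 0.283, 1.87, 0.738 and 6.48 CPM in tumor, against 97.8, 83.3, 94.1 and 84.5 CPM in blood (log2 fold change -5.27 ± 0.62 SE, adjusted p = 1.54e-06), a fall shared by all tumor libraries with blood levels close together.

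Secondary and tertiary granule genes were mostly lower in tumor, and of 9 azurophil granule genes 5 did not pass. The difference between the granule classes was not tested. Granule proteins are made during maturation in the marrow and packed in waves into azurophil, secondary and tertiary granules. Of 20 secondary and tertiary granule genes, 0 were higher and 16 lower, with a median log2 fold change of -2.26. Mmp8, neutrophil collagenase, had 113, 242, 228 and 906 CPM in tumor, against 7726, 6726, 6818 and 5094 CPM in blood (log2 fold change -4.15 ± 0.46 SE, adjusted p = 7.64e-07). Ltf, which encodes the iron-binding lactoferrin, had 60.3, 115, 93.6 and 136 CPM in tumor, against 749.8, 1311, 484 and 290.2 CPM in blood (log2 fold change -2.81 ± 0.59 SE, adjusted p = 0.00117). Lcn2, lipocalin 2, which binds bacterial siderophores, had 95.2, 271, 219 and 971 CPM in tumor, against 3156, 2465, 2571 and 2334 CPM in blood (log2 fold change -2.76 ± 0.48 SE, adjusted p = 0.000162). In all 3 genes the tumor library of replicate 5 had the highest level of its group, by the widest margin in Mmp8 and Lcn2, and tumor and blood did not overlap. Mmp9, gelatinase B, fell less (log2 fold change -1.92, with 1512 ± 511 CPM in tumor and 5715 ± 1661 CPM in blood; SD, n = 4 each), and Anxa1, an anti-inflammatory annexin stored in gelatinase granules, fell by 3.34 on the log2 scale (adjusted p = 9.58e-10). Hp, haptoglobin, and Itgb2l, an integrin β-like gene of mouse neutrophils, had log2 fold changes of -2.37 and -4.15. The 9 azurophil granule genes were split, with 3 higher and 1 lower, and Mpo and Elane, the main azurophil enzymes, were under 1 CPM in the mean of both groups. Ctsc, the protease that activates neutrophil serine proteases and is also abundant in macrophages, had 2219, 823, 916 and 365 CPM in tumor, against 117, 82.5, 196 and 156 CPM in blood (log2 fold change 2.97 ± 0.48 SE, adjusted p = 7.1e-05). Prtn3, proteinase 3 (log2 fold change 1.73), and Cd63, a granule membrane tetraspanin (1.38), were the other higher members, and Prss57, a serine protease of azurophil granules, was lower (-2.03). Ctsc and Cd63 are also in the lysosomal list below. The call of Prtn3 was not past the threshold with lane added to the fit or without blood replicate 1 or 2, tumor replicate 1 or tumor replicates 1 and 3 together, adjusted p = 0.0521 to 0.12. That of Prss57 was not past the threshold without tumor replicates 1 and 3 together, adjusted p = 0.0984.

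**Figure D3:**
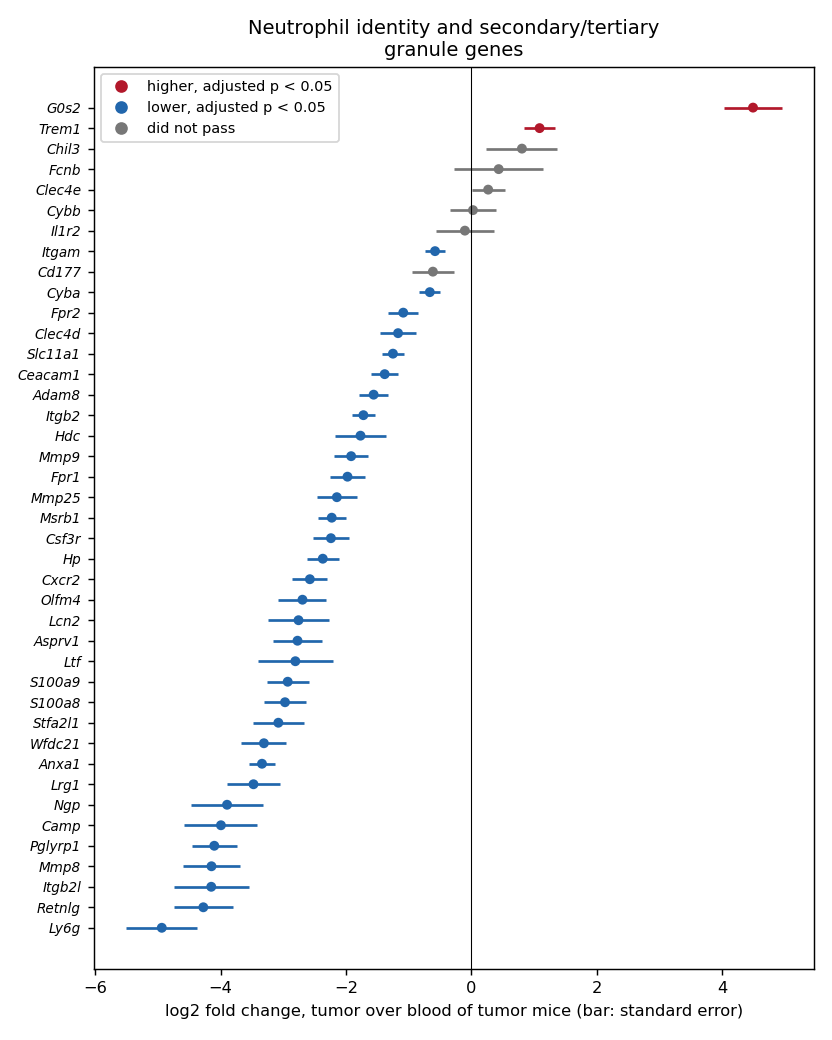
Log2 fold change of tumor over blood of tumor mice for neutrophil identity and secondary or tertiary granule genes, 1 gene a row, with bars of 1 standard error (n = 4 libraries per group). Blue genes were lower and red genes higher at an adjusted p under 0.05, and gray genes did not pass. Ly6g has the lowest value, -4.94, and only G0s2 and Trem1 are higher.

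Genes of the oxidative burst and of NET formation were lower too, 12 of 20, against 1 higher, with a median log2 fold change of -0.99. Padi4, the enzyme that citrullinates histones during NET release (ENSMUSG00000025330, mm10 chromosome 4, 140745865 to 140774236), had 42.2, 28.2, 21.9 and 24.5 CPM in tumor, against 605, 700.1, 380.5 and 247 CPM in blood. It fell without overlap (log2 fold change -4.05 ± 0.35 SE, adjusted p = 4.4e-08), and the 4 tumor values lay close together. Rac2, the GTPase of the neutrophil NADPH oxidase, had 435, 834, 456 and 731 CPM in tumor, against 3556, 2652, 2855 and 2239.6 CPM in blood (log2 fold change -2.20 ± 0.22 SE, adjusted p = 1.97e-07). Gpx1, a glutathione peroxidase, Gsdmd, the pore-forming gasdermin D, and Txnip, an inhibitor of thioredoxin, were lower by 1.20, 0.84 and 1.13 on the log2 scale (Txnip was not past the threshold over the 8 libraries alone or without tumor replicates 1 and 3 together, adjusted p = 0.0502 to 0.0695). Cybb and Ncf1, subunits of the oxidase, did not pass, with log2 fold changes of 0.03 (standard error 0.37) and 0.27 (standard error 0.25). Sod2, mitochondrial superoxide dismutase, was the higher member, averaging 116 ± 26.7 CPM in tumor and 26.02 ± 7.96 CPM in blood (log2 fold change 2.15).

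Receptors for chemoattractants moved both ways, 5 higher and 9 lower of 19 (3 higher over the 8 libraries alone or without blood replicate 1 or 3, and 2 without tumor replicates 1 and 3). Cxcr2, the receptor for the ELR chemokines that draw neutrophils out of marrow and blood, had 272, 672, 415 and 825 CPM in tumor, against 4051, 2961, 3220.5 and 2802 CPM in blood. It fell in every tumor library (log2 fold change -2.58 ± 0.28 SE, adjusted p = 6.08e-07). C5ar1, the receptor for complement C5a, had 756, 1037, 772 and 1636 CPM in tumor, against 2772, 2452, 2336 and 2129 CPM in blood (log2 fold change -1.21 ± 0.22 SE, adjusted p = 0.000342). Ccrl2, an atypical receptor that binds chemerin without signaling (ENSMUSG00000043953, mm10 chromosome 9, 111054486 to 111057519), went the other way, with 3716, 3682, 2984 and 4608 CPM in tumor, against 8.31, 15.3, 14.02 and 36.9 CPM in blood. It was among the genes with the clearest separation (log2 fold change 7.65 ± 0.46 SE, adjusted p = 9.58e-10), with tumor values close together, and its log2 fold change was 7.79 without the tumor libraries of replicates 1 and 3 and 8.07 with lane as a term. C3ar1, the receptor for complement C3a and a gene also abundant in macrophages, had 329, 90.3, 183 and 76.5 CPM in tumor, against 7.09, 3.29, 12.7 and 19.9 CPM in blood (log2 fold change 3.98 ± 0.65 SE, adjusted p = 7.71e-05). Cxcr4, which returns aged neutrophils to the marrow, did not pass, at 48.04 ± 14.8 CPM in tumor and 58.2 ± 4.48 CPM in blood (log2 fold change -0.28, standard error 0.24).

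Adhesion genes of circulating neutrophils fell, 10 of 20, while 5 rose. Selplg, the ligand of P-selectin, had 336, 879, 423 and 982 CPM in tumor, against 5393, 4224, 4804 and 3919 CPM in blood (log2 fold change -2.81 ± 0.28 SE, adjusted p = 2.55e-07). Itgal, the α chain of LFA-1, had 36.1, 92.2, 49.5 and 83.7 CPM in tumor, against 794, 1133, 675 and 504 CPM in blood (log2 fold change -3.57 ± 0.34 SE, adjusted p = 1.41e-07), and Itgb2, the β2 chain it shares with CD11b, fell by 1.72 on the log2 scale. These 3 genes were separated without overlap. Vcam1, an adhesion molecule of endothelium and of some macrophages, was higher (log2 fold change 6.92 ± 1.51 SE, adjusted p = 0.00155), with 116, 234, 144 and 114 CPM in tumor, against 0, 0, 0.0441 and 4.96 CPM in blood. Pecam1, an endothelial and leukocyte adhesion protein, was higher in the mean with overlapping groups (log2 fold change 1.12, adjusted p = 0.0161; not past the threshold with lane added to the fit or without blood replicate 1 or 4, tumor replicate 1 or tumor replicates 1 and 3 together, adjusted p = 0.0522 to 0.585), and the platelet integrin chain Itgb3 was lower (-2.10). Icam1, a ligand of β2 integrins, was higher too, averaging 150.3 ± 30.4 CPM in tumor and 28.4 ± 7.05 CPM in blood (log2 fold change 2.40).

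Chemokine genes were higher in tumor for 21 of 25 members, against 2 lower, with a median log2 fold change of 7.18, or 6.82 with genes that had no blood counts set at their bound. Cxcl2, a ligand of CXCR2 and a strong attractant of neutrophils (ENSMUSG00000058427, mm10 chromosome 5, 90903871 to 90905938), had 8001, 11583, 8927 and 18018 CPM in tumor, against 93.3, 204, 98.2 and 472 CPM in blood. The lowest tumor library was far above the highest blood library (log2 fold change 5.74 ± 0.55 SE, adjusted p = 1.32e-07), and the log2 fold change was 6.09 without tumor replicates 1 and 3. Ccl3, an attractant of monocytes and other leukocytes that binds CCR1, had 1081, 1007, 1341 and 1534 CPM in tumor, against 10.5, 2.92, 6.35 and 9.48 CPM in blood (log2 fold change 7.41 ± 0.43 SE, adjusted p = 9.58e-10). Cxcl1, another CXCR2 ligand, had 560.5, 19.9, 68.7 and 52.5 CPM in tumor, against 0.0218, 0.325, 0.0882 and 0.432 CPM in blood, with tumor replicate 1 far above the other tumor libraries (log2 fold change 9.64 ± 1.08 SE, adjusted p = 8.82e-07). Cxcl9 and Cxcl10 are induced by interferon γ and bind CXCR3, a receptor of T and NK cells. Cxcl10 had 147, 84.4, 43.04 and 60.1 CPM in tumor, against 0, 0.366, 0.265 and 0.281 CPM in blood (log2 fold change 8.50 ± 0.99 SE, adjusted p = 1.43e-06). Cxcl9 averaged 31.9 ± 21.5 CPM in tumor and 0.379 ± 0.458 CPM in blood (log2 fold change 6.39, adjusted p = 0.00267). Cxcl14, a chemokine of epithelium, rested on 1 count in blood and had 28.5, 11.1, 14.8 and 6.38 CPM in the tumor libraries. Ccl6, which mouse neutrophils and macrophages express, was one of the lower members, averaging 2276 ± 936 CPM in tumor and 4372 ± 345 CPM in blood (log2 fold change -0.94; not past the threshold with lane added to the fit or without tumor replicate 2, adjusted p = 0.0574 to 0.213). Pf4, a platelet chemokine that macrophages can also express, overlapped between the groups (log2 fold change 1.43 ± 0.81 SE, adjusted p = 0.208). Ccl2, Ccl7 and Ccl8, which draw monocytes and are known products of macrophages and stroma, had log2 fold changes of 5.93, 8.48 and 7.98. The macrophage marker sum was also higher in tumor, 6855 to 11069.6 CPM in tumor, against 1279 to 1768 CPM in blood, and its part in these values was not tested.

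Cytokine genes rose in 13 of 22 cases and fell in 3. Il1a, interleukin 1α, had 1759.7, 896, 678 and 732 CPM in tumor, against 1.05, 1.14, 0.0882 and 0.0432 CPM in blood (log2 fold change 10.76 ± 1.04 SE, adjusted p = 1.6e-07). Il1b, interleukin 1β, which was already well expressed in blood, had 6571, 9442, 4334 and 10992 CPM in tumor, against 2909.9, 2464, 1395 and 1354 CPM in blood (log2 fold change 1.95 ± 0.31 SE, adjusted p = 7.2e-05). Il1rn, the antagonist of the same receptor, had 1464, 1512, 1381 and 1504 CPM in tumor, against 324, 175, 175 and 159 CPM in blood (log2 fold change 2.82 ± 0.29 SE, adjusted p = 3.62e-07). All 3 were higher in every tumor library than in any blood library. Il23a, the p19 subunit of interleukin 23, had 121, 137, 107 and 178 CPM in the tumor libraries and 2 counts in blood, a ratio of 12502, with a 95% exact counting interval of 3461 to 103234. Lif, an interleukin 6 family cytokine, had 29.4, 3.98, 10.3 and 6.38 CPM in the tumor libraries and no count in blood, at least 784-fold higher. Tnf, tumor necrosis factor, averaged 299 ± 50.5 CPM in tumor and 4.77 ± 1.39 CPM in blood (log2 fold change 5.97), and Osm, oncostatin M, 808 ± 337 CPM in tumor and 125 ± 42.5 CPM in blood (2.70). Il15, which sustains NK cells, and Tnfsf14, also called LIGHT, were lower, with log2 fold changes of -2.31 and -2.97, as was Il12a. Tgfb1, the pleiotropic TGF-β1, did not pass (-0.20, standard error 0.22).

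NF-κB, the transcription factor family downstream of interleukin 1, TNF and Toll-like receptors, induces its own inhibitors. Of 20 genes of its subunits and feedback, 8 were higher and 5 lower (3 lower without tumor replicate 1 or 2, and 2 without tumor replicate 3, without replicates 1 and 3 together or with lane in the fit). Tnfaip3, the deubiquitinase A20 that ends the signal, had 1133, 1183, 994 and 2096 CPM in tumor, against 8.02, 21.1, 14.5 and 16.9 CPM in blood (log2 fold change 6.48 ± 0.42 SE, adjusted p = 9.58e-10). Nfkbia, the inhibitor IκBα, had 3029.8, 3801, 2905 and 5628 CPM in tumor, against 272, 364, 729.8 and 807 CPM in blood (log2 fold change 2.82 ± 0.36 SE, adjusted p = 4.93e-06). Nfkbiz, a nuclear IκB that helps to induce secondary response genes, had 832, 1053, 699 and 1720.0 CPM in tumor, against 139, 119, 122 and 98.3 CPM in blood (log2 fold change 3.17 ± 0.26 SE, adjusted p = 2.56e-08). These feedback genes rose without overlap, while the subunit genes Nfkb1 and Rela were lower, with log2 fold changes of -1.73 and -0.54, and Rel, Relb and Nfkb2 did not pass. Tnip3, a binding partner of A20, was higher (log2 fold change 5.85, adjusted p = 0.0232), but not past the threshold with lane added to the fit or without blood replicate 1, 2 or 4, tumor replicate 1 or tumor replicates 1 and 3 together, adjusted p = 0.0561 to 0.463.

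Immediate early genes, which cells transcribe within minutes of a stimulus and also during tissue dissociation, were higher for 17 of 21, with none lower and a median log2 fold change of 3.12. Egr1, a zinc finger transcription factor, had 2930.2, 6396, 4913 and 8844 CPM in tumor, against 1.77, 21.2, 15.3 and 74.1 CPM in blood. It rose without overlap (log2 fold change 7.68 ± 0.75 SE, adjusted p = 1.87e-07), with blood replicate 4 the highest and blood replicate 1 the lowest of the blood group. Zfp36, which destabilizes cytokine mRNAs, had 6531, 7973, 6959 and 11255 CPM in tumor, against 2674, 2823, 2398 and 2532 CPM in blood (log2 fold change 1.65 ± 0.20 SE, adjusted p = 2e-06). Junb, an AP-1 subunit, had 4853, 8366, 5502 and 9409 CPM in tumor, against 4258, 3927, 2896 and 3772 CPM in blood (log2 fold change 0.92 ± 0.21 SE, adjusted p = 0.00235). Both were already abundant in circulating neutrophils and differed by a smaller factor. The orphan nuclear receptors Nr4a2 and Nr4a3 had 2 and 3 counts in blood and averaged 38.9 and 13.1 CPM in tumor. The digestion that tumor pieces went through and blood did not cannot be told apart from the tissue in this list.

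Heat shock and endoplasmic reticulum stress genes, also known to respond to cell handling, were higher for 10 of 12 and 13 of 20, with none and 4 lower. Of the 4 lower stress genes, a count of 1 was left with lane in the fit or without tumor replicate 2 or blood replicate 1 or 3. The summed heat shock genes ran from 1219 to 1722 CPM in tumor and 470 to 603 CPM in blood of tumor mice. In blood of sham mice they ran from 814 to 2807 CPM, which overlapped tumor, and that difference was not tested. Hspa1b, an inducible Hsp70 (nearly identical to Hspa1a, so their reads may be shared), had 157, 89.6, 160.3 and 191 CPM in tumor, against 24.7, 12.04, 18.9 and 34.9 CPM in blood (log2 fold change 2.72 ± 0.52 SE, adjusted p = 0.000408). Hsp90ab1, a constitutive Hsp90, had 433, 302, 413 and 179.9 CPM in tumor, against 56.1, 71.8, 63.1 and 50.6 CPM in blood (log2 fold change 2.46 ± 0.31 SE, adjusted p = 3.46e-06). Hspe1, a mitochondrial chaperonin, and Hsph1, an Hsp110, had log2 fold changes of 3.13 and 3.41, and Hspa8, the constitutive Hsc70, 0.84. The call of Hsph1 was not past the threshold without tumor replicates 1 and 3 together, adjusted p = 0.122. That of Hspa8 was not past the threshold without blood replicate 1, 2, 3 or 4, tumor replicate 1 or 3 or tumor replicates 1 and 3 together, adjusted p = 0.0548 to 0.358. Hspa5, the chaperone BiP of the endoplasmic reticulum, averaged 1235 ± 338 CPM in tumor and 481 ± 63.9 CPM in blood (log2 fold change 1.36, adjusted p = 1.13e-05). Ppp1r15a, which restarts translation after stress, had 627, 984, 574 and 970.0 CPM in tumor, against 45.4, 97.6, 45.8 and 119 CPM in blood (log2 fold change 3.36 ± 0.33 SE, adjusted p = 2.15e-07). Slc3a2, a chain of amino acid transporters, was higher (1.87), and the serine synthesis enzymes Phgdh and Psat1, low in blood, had log2 fold changes of 6.93 and 7.18 with standard errors of 1.13 and 1.44.

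Hypoxia genes were higher in tumor for 16 of 20 members and lower for 3, with a median log2 fold change of 1.97. Low oxygen stabilizes HIF-1α, which binds elements with the core ACGTG in the control regions of its targets. Hilpda, a lipid droplet protein that inhibits the fat-splitting enzyme ATGL, is shown here with 300 bases around its downstream annotated start (RefSeq, GRCm38.p6, chr6:29272376-29272675, plus strand, 250 bases before the start and 50 from it), because it carries that core. The window of its other annotated start (chr6:29272238-29272537) held no match. The capitals mark the ACGTG match.

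Hilpda: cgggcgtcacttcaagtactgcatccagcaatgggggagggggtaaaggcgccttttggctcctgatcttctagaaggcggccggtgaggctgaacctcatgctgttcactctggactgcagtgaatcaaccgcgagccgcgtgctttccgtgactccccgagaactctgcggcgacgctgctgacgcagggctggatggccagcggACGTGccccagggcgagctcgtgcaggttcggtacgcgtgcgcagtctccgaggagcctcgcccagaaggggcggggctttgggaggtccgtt

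This core, searched on both strands (ACGTG or its complement CACGT, which overlap in CACGTG), was in 14 of the 18 hypoxia genes with a promoter in the RefSeq table (77.8%) and 13 of 19 glycolysis genes (68.4%), against 5886 of 27025 genes overall (21.8%). A gene was counted when any of its annotated windows held the core. A match describes the letters in a window and is not a measured binding site. The members were listed as genes of these processes, and the shares count them whichever way they changed. They are therefore no evidence on the change in tumor, and all promoters were not matched for base content. Hilpda itself (ENSMUSG00000043421, mm10 chromosome 6, 29272488 to 29275446) had 729.7, 545, 551 and 773 CPM in tumor, against 1.68, 3.62, 1.74 and 10.8 CPM in blood (log2 fold change 7.18 ± 0.72 SE, adjusted p = 2.38e-07). Vegfa, the main growth factor of vessels, had 801, 635, 600.3 and 524 CPM in tumor, against 25.5, 25.98, 14.6 and 21.2 CPM in blood (log2 fold change 4.87 ± 0.30 SE, adjusted p = 9.58e-10). Both rose in every tumor library by more than the spread of either group, and Vegfa had a log2 fold change of 4.71 without tumor replicates 1 and 3. Adm, adrenomedullin, and P4ha2, a prolyl hydroxylase for collagen, had no count in blood and were at least 2111-fold and at least 1482-fold higher. Car9, Egln3 and Ndrg1, further HIF targets, had log2 fold changes of 5.17, 3.45 and 1.99. Pfkfb4, a regulator of glycolytic flux, went the other way, with 60.8, 106, 48.9 and 130.1 CPM in tumor, against 529, 733, 492 and 486 CPM in blood (log2 fold change -2.69 ± 0.30 SE, adjusted p = 8.6e-07). Epithelial and macrophage marker sums were higher in tumor as well, and their part in this list was not tested.

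Glycolytic genes followed, 13 of 20 higher and 3 lower, with a median log2 fold change of 1.04. Tpi1, triose phosphate isomerase, had 819.8, 720.1, 658 and 474 CPM in tumor, against 112, 82.3, 99.7 and 115 CPM in blood (log2 fold change 2.71 ± 0.20 SE, adjusted p = 9.85e-09). Ldha, which makes lactate from pyruvate, had 2190.0, 1841, 2008 and 1665 CPM in tumor, against 1039, 960.4, 1044 and 955 CPM in blood (log2 fold change 0.95 ± 0.17 SE, adjusted p = 0.000247). Aldoa, the aldolase of most tissues, had 1720.2, 1650.2, 1352 and 1205 CPM in tumor, against 916, 724, 692 and 562 CPM in blood (log2 fold change 1.03 ± 0.20 SE, adjusted p = 0.000498). The 3 enzymes rose without overlap, and Tpi1 by the widest margin. Eno1, enolase, was higher by 0.66 on the log2 scale, but not past the threshold without tumor replicates 1 and 3 together, adjusted p = 0.0506. The glucose transporter genes split. Slc2a1, the GLUT1 transporter, was higher (1.05), and Slc2a3, the GLUT3 transporter of circulating leukocytes, fell, with 78.5, 248, 129 and 271 CPM in tumor, against 1303, 1900.2, 1001 and 888 CPM in blood (log2 fold change -2.81 ± 0.34 SE, adjusted p = 2.44e-06). Pkm, pyruvate kinase, did not pass (log2 fold change 0.07, standard error 0.16).

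**Figure D4:**
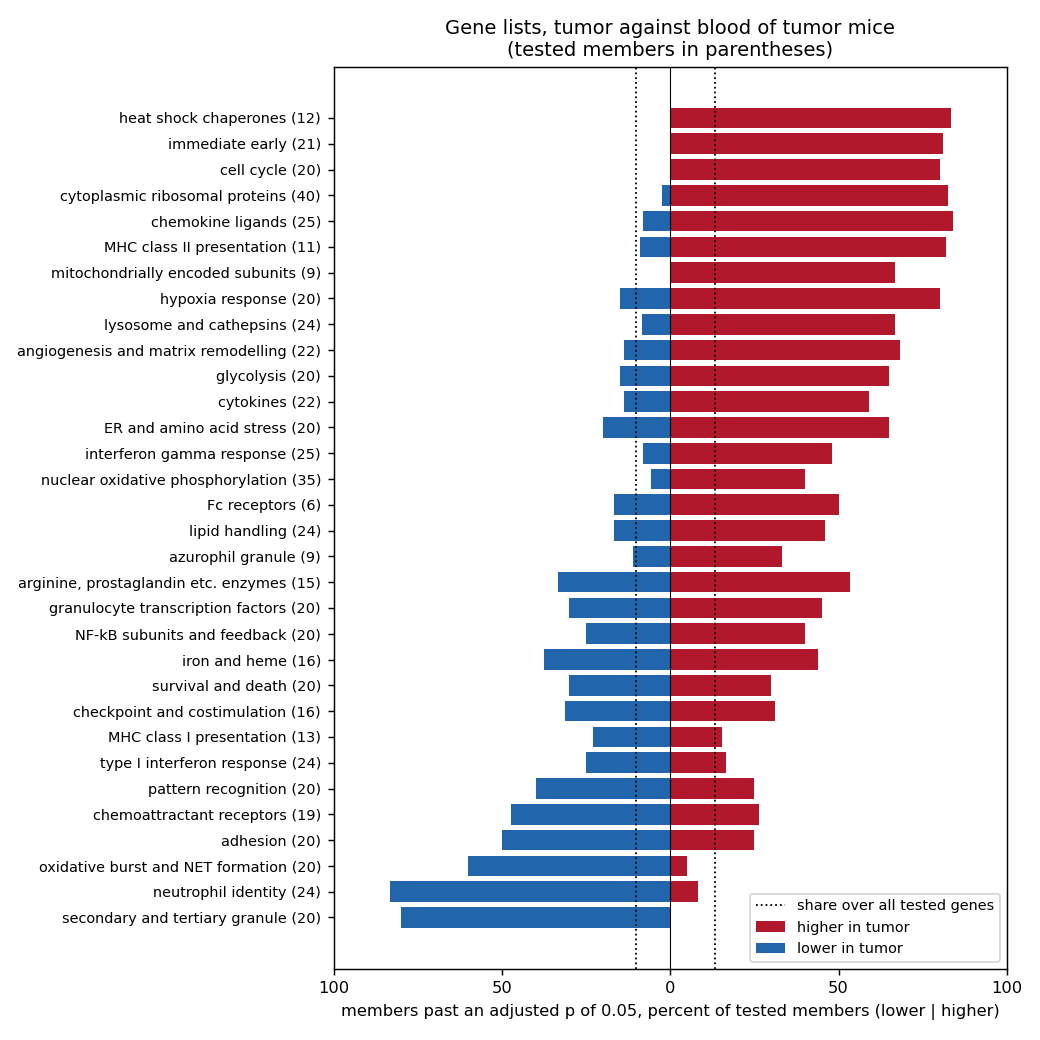
Share of tested members of each gene list that were higher (red, right) or lower (blue, left) in the tumor than in the blood libraries at an adjusted p under 0.05, with the number of tested members in parentheses. The dotted lines are the shares over all 28762 tested genes, 13.3% higher and 10.3% lower. Chemokine, heat shock, immediate early and ribosomal genes lie at the higher end, and secondary and tertiary granule, neutrophil identity and oxidative burst genes at the lower end.

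Mitochondrial and ribosomal genes were counted in 3 lists. Of 35 nuclear genes of oxidative phosphorylation, 14 were higher and 2 lower, and with lane as a term none remained higher. Ndufa9 of complex I, Cyc1 of complex III and Atp5o of the ATP synthase had log2 fold changes of 1.69, 1.06 and 1.47, while Sdha of complex II had -0.67, and with lane as a term these 4 had adjusted p-values of 0.0501, 0.332, 0.0917 and 0.102. Atp5a1, another ATP synthase subunit (0.65), was not past the threshold with lane added to the fit or without tumor replicates 1 and 3 together, adjusted p = 0.135 to 0.159. Without tumor replicates 1 and 3, 6 of the 35 genes were higher. Of 13 mitochondrially encoded genes, 9 were tested, 6 were higher and none was lower, with a median log2 fold change of 1.86, and 2 were higher with lane as a term. Mitochondrial mt-Nd1 had 381, 217, 305 and 284 CPM in tumor, against 40.9, 21.9, 38.5 and 49.04 CPM in blood (log2 fold change 2.98 ± 0.35 SE, adjusted p = 1.79e-06). mt-Cytb had a log2 fold change of 2.12. Cytoplasmic ribosomal protein genes were higher for 33 of 40, with 1 lower and a median log2 fold change of 1.28, but for 16 with lane as a term. Rpl3 and Rplp0 had log2 fold changes of 2.71 and 1.07, and Rps9 was the lower one (-1.09). Genes of this family have many processed copies in the genome, so their counts are uncertain.

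Cell cycle genes were higher for 16 of 20, with none lower, at low levels and with wide errors. Rrm2, a subunit of ribonucleotide reductase, had 84.4, 86.6, 149 and 33.8 CPM in tumor, against 0, 1.87, 3.97 and 0.971 CPM in blood (log2 fold change 5.70 ± 1.39 SE, adjusted p = 0.00386). Top2a, a topoisomerase of dividing cells, had 22.1, 26.97, 32.6 and 5.69 CPM in tumor, against 0, 0.223, 0 and 1.25 CPM in blood (log2 fold change 5.88 ± 1.61 SE, adjusted p = 0.0095; not past the threshold with lane added to the fit, adjusted p = 0.179). Tumor libraries differed several-fold among themselves in both genes. Pcna, the sliding clamp of DNA replication, averaged 39.2 ± 6.75 CPM in tumor and 11.1 ± 2.85 CPM in blood (log2 fold change 1.82), and Mcm6 and Tyms, also needed for DNA replication, had 3.73 and 7.06. Mki67, the proliferation antigen Ki-67, did not pass (log2 fold change 0.40, standard error 0.31). The epithelial marker sum, 1173 to 3949 CPM in tumor, against 173 to 289 CPM in blood, was higher in the same libraries, and its part was not tested.

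Enzymes that modify the tumor environment moved both ways, 8 higher and 5 lower of 15. Ptgs2, the inducible cyclooxygenase COX-2 of prostaglandin synthesis, had 2185, 1569.8, 1151 and 1625 CPM in tumor, against 1.66, 8.27, 1.65 and 4.73 CPM in blood (log2 fold change 8.64 ± 0.54 SE, adjusted p = 9.58e-10), with the lowest tumor library far above the highest blood library. Arg1, arginase 1, which depletes arginine, had 4295, 937, 1809 and 749 CPM in tumor, against 24.3, 3.80, 102 and 109.5 CPM in blood (log2 fold change 5.02 ± 1.01 SE, adjusted p = 0.000697). Blood replicates differed widely in Arg1, and the groups still did not overlap. Ido1, which breaks down tryptophan, was higher (log2 fold change 9.91, adjusted p = 0.00153), with tumor values of 30.2, 26.5, 28.6 and 5.62 CPM, of which replicate 5 was low. Alox5ap, the partner of 5-lipoxygenase in leukotriene synthesis, fell, with 76.2, 119, 82.6 and 174 CPM in tumor, against 817, 601, 819.8 and 758 CPM in blood (log2 fold change -2.73 ± 0.23 SE, adjusted p = 3.05e-08), as did Alox5 itself (-1.55). Nos2, inducible nitric oxide synthase, did not pass (0.44, standard error 0.45).

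Of 16 checkpoint and costimulation genes, 5 were higher and 5 lower. Cd274, which encodes PD-L1, the ligand of the T cell brake PD-1 (ENSMUSG00000016496, mm10 chromosome 19, 29367455 to 29388095), had 343, 411, 377 and 489 CPM in tumor, against 35.3, 25.1, 40.5 and 23.5 CPM in blood. It rose without overlap (log2 fold change 3.70 ± 0.36 SE, adjusted p = 1.77e-07), and the log2 fold change was 3.84 without tumor replicates 1 and 3. Pdcd1lg2, the other PD-1 ligand, averaged 15.8 ± 3.32 CPM in tumor and 0.113 ± 0.199 CPM in blood (log2 fold change 7.10, adjusted p = 0.000142). Pvr, the poliovirus receptor bound by TIGIT, averaged 20.3 ± 6.65 CPM in tumor and 0.582 ± 0.7 CPM in blood (log2 fold change 5.12, adjusted p = 0.0108). Vsir, the checkpoint protein VISTA, had 320.4, 454, 337 and 513 CPM in tumor, against 1055, 1042, 969.8 and 804 CPM in blood (log2 fold change -1.25 ± 0.18 SE, adjusted p = 1.44e-05). Siglece, an inhibitory receptor for sialic acids, had 119, 238, 164 and 281 CPM in tumor, against 1111, 889, 1142 and 1025 CPM in blood (log2 fold change -2.38 ± 0.22 SE, adjusted p = 1.05e-07), and Cd84, a SLAM family receptor, fell by 1.98 on the log2 scale.

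Among genes of angiogenesis and matrix remodelling, 15 of 22 were higher and 3 lower, the lower ones being Mmp8, Mmp9 and Adam8 of neutrophil granules. Spp1, osteopontin, a secreted phosphoprotein of macrophages and epithelium, had 3569.7, 861, 1680.5 and 440.4 CPM in tumor, against 28.9, 4.10, 35.7 and 51.4 CPM in blood (log2 fold change 5.77 ± 0.78 SE, adjusted p = 9.08e-06). Areg, amphiregulin, a ligand of the EGF receptor, and Timp1, an inhibitor of metalloproteases, had log2 fold changes of 7.33 and 7.24 with standard errors of 1.57 and 1.76. The call of Timp1 was not past the threshold without tumor replicates 1 and 3 together, adjusted p = 0.112. Thbs1, thrombospondin 1, averaged 1041 ± 699 CPM in tumor and 51.9 ± 37.8 CPM in blood, and F3, tissue factor, 178 ± 28.4 CPM in tumor and 1.80 ± 1.25 CPM in blood, with log2 fold changes of 4.33 and 6.63.

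Genes of the interferon response were counted in 2 lists, for type I and for interferon γ, and the difference between the lists was not tested. Both kinds of interferon signal act through STAT proteins, type I by the interferon-stimulated response element, whose core is a pair of GAAA blocks 2 bases apart that IRF proteins bind. The promoter of Cxcl10 is shown because it carries this core (RefSeq, GRCm38.p6, chr5:92348840-92349139, minus strand, written on the strand of the gene). The capitals mark the match.

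Cxcl10: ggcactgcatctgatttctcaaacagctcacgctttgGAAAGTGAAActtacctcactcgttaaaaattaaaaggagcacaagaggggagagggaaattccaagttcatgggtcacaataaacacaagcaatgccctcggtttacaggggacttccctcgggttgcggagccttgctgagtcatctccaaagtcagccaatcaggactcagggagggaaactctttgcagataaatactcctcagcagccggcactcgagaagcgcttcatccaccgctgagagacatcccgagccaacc

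Searched on both strands, the core was in 10 of 18 type I interferon genes with a promoter in the table (55.6%) and in 11 of 18 interferon γ genes (61.1%), against 1079 of 27025 overall (3.99%). These shares too count members whichever way they changed. Of the 24 type I interferon genes, 4 were higher and 6 lower, with a median log2 fold change of 0.13. The share that was higher lay near the background, and the counts were 2 higher without tumor replicate 2 or blood replicate 1, 2 or 4, 3 lower with lane as a term and 2 lower without tumor replicates 1 and 3. Oasl2, an antiviral protein of the 2′-5′ oligoadenylate synthetase family, had 180.3, 449, 241 and 229 CPM in tumor, against 1223, 763, 653 and 423 CPM in blood (log2 fold change -1.48, adjusted p = 0.0106), with overlapping groups. It was not past the threshold with lane added to the fit or without blood replicate 1 or tumor replicates 1 and 3 together, adjusted p = 0.0569 to 0.139. Oas3, a synthetase of the same family, fell without overlap, with 21.3, 30.4, 23.5 and 24.6 CPM in tumor, against 177, 267, 203 and 75.2 CPM in blood (log2 fold change -2.85 ± 0.43 SE, adjusted p = 3.02e-05). Irf9, the DNA-binding part of the type I signal complex, was lower too (-1.23; not past the threshold without tumor replicates 1 and 3 together, adjusted p = 0.0617), and Bst2, tetherin, which holds back budding viruses, was higher (2.94). Of the 25 interferon γ genes, 12 were higher and 2 lower, with a median log2 fold change of 1.43, and the higher ones included Cxcl9, Cxcl10 and Cd274. Irgm2, a guanosine triphosphatase induced by interferon γ, was lower (log2 fold change -2.14, adjusted p = 0.00291).

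Of 11 genes of class II antigen presentation, 9 were higher and 1 lower, with a median log2 fold change of 3.26. Cd74, the invariant chain, had 4919, 3573, 1938 and 1527 CPM in tumor, against 302, 134, 429 and 348 CPM in blood (log2 fold change 3.30 ± 0.42 SE, adjusted p = 4.67e-06). H2-Ab1, a class II β chain, had 1702, 1276, 598 and 483 CPM in tumor, against 66.4, 43.7, 148 and 111 CPM in blood (log2 fold change 3.46 ± 0.45 SE, adjusted p = 5.33e-06), and H2-Eb1 a log2 fold change of 3.46. Ctss, the cathepsin that trims the invariant chain, averaged 1874 ± 519 CPM in tumor and 334 ± 146 CPM in blood (log2 fold change 2.49). Of 13 class I genes, 2 were higher and 3 lower, counts that were 1 to 3 and 1 to 5 under the alternatives. H2-D1, a class I heavy chain, had 3883, 4672, 3389.8 and 4642 CPM in tumor, against 9739, 8019.9, 8878 and 7871 CPM in blood (log2 fold change -1.06 ± 0.19 SE, adjusted p = 0.000195), while B2m, its light chain, and H2-K1 did not pass (0.08 and 0.23). Psmb10, an immunoproteasome subunit, was higher (1.83), and Psmb9 and Tap2 were lower (-0.84 and -0.55), both with overlapping groups. Psmb9 was not past the threshold with lane added to the fit, over the 8 libraries alone or without blood replicate 1, tumor replicate 3 or 5 or tumor replicates 1 and 3 together, adjusted p = 0.0503 to 0.163. Tap2 was not past the threshold with lane added to the fit, over the 8 libraries alone, over the 16 libraries of tumor mice, with DESeq2 size factors, in DESeq2 or without blood replicate 1, 2 or 3, tumor replicate 1, 3 or 5 or tumor replicates 1 and 3 together, adjusted p = 0.0712 to 0.446. Class I genes are close paralogs, so their shares of reads are uncertain. Dendritic cell and macrophage genes carry class II as well, and 2 of 10 and 12 of 15 of them were higher.

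Lysosomal genes were higher for 16 of 24, against 2 lower. Ctsb, cathepsin B, had 3647, 1868, 2729 and 1739 CPM in tumor, against 827, 571, 1059.7 and 941 CPM in blood (log2 fold change 1.55, adjusted p = 0.00141; not past the threshold without tumor replicates 1 and 3 together, adjusted p = 0.0524). Psap, the precursor of saposins, averaged 2457 ± 1111 CPM in tumor and 1379.9 ± 115 CPM in blood (log2 fold change 0.83, adjusted p = 0.0117; not past the threshold with lane added to the fit or without tumor replicate 1 or tumor replicates 1 and 3 together, adjusted p = 0.0763 to 0.523). Lgmn, legumain, had 684, 333, 548 and 253 CPM in tumor, against 15.1, 9.48, 45.7 and 54.999 CPM in blood (log2 fold change 3.86 ± 0.58 SE, adjusted p = 2.91e-05). Atp6v0d2, a proton pump subunit of macrophages and osteoclasts, averaged 82.3 ± 19.5 CPM in tumor and 0.775 ± 0.894 CPM in blood (log2 fold change 6.73, adjusted p = 0.000137). Lipid handling was higher for 11 of 24 and lower for 4 (6 and 2 without tumor replicates 1 and 3, and 2 lower with lane as a term). Apoe, the apolipoprotein made in bulk by macrophages, had 4755, 6276, 5046 and 3697 CPM in tumor, against 203, 134, 354 and 534 CPM in blood (log2 fold change 4.01 ± 0.51 SE, adjusted p = 4.25e-06), with tumor replicate 5 the lowest of its group. Trem2, a lipid receptor of macrophages, had 86.1, 51.7, 50.7 and 39.6 CPM in tumor, against 0.567, 0.406, 2.60 and 3.43 CPM in blood (log2 fold change 5.02 ± 0.75 SE, adjusted p = 2.85e-05). Plin2, which coats lipid droplets, was higher (log2 fold change 1.16, adjusted p = 0.0186; not past the threshold without blood replicate 3 or tumor replicates 1 and 3 together, adjusted p = 0.0524 to 0.057). Pnpla2, the fat-splitting enzyme ATGL, was lower, with 153, 303, 248 and 612 CPM in tumor, against 739, 932, 1059 and 1262 CPM in blood (log2 fold change -1.60 ± 0.31 SE, adjusted p = 0.00046). G0s2 and Hilpda, both known inhibitors of ATGL, were higher. Apoe and Trem2 belong to the macrophage list themselves, and Cd68 is in both the macrophage and the lysosomal list. The macrophage sum was also higher in tumor, and its part in the lipid and lysosomal genes was not tested.

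Iron genes split, 7 higher and 6 lower of 16. Fth1, the ferritin heavy chain, had 9919.9, 10886, 10996 and 17576 CPM in tumor, against 5766, 4146, 6589.7 and 9828 CPM in blood (log2 fold change 0.91, adjusted p = 0.0247; not past the threshold without blood replicate 1 or 2 or tumor replicate 5, adjusted p = 0.0592 to 0.0923), with tumor replicate 5 far above the others. Cd163, the scavenger of hemoglobin on macrophages, averaged 67.2 ± 23.2 CPM in tumor and 0.248 ± 0.468 CPM in blood (log2 fold change 8.07, adjusted p = 9.51e-05). Cp, the ferroxidase ceruloplasmin, averaged 28.01 ± 13.4 CPM in tumor and 0.928 ± 1.29 CPM in blood (log2 fold change 4.91, adjusted p = 0.00103). Slc40a1, the iron exporter ferroportin, fell by 4.51 on the log2 scale. It averaged 106 ± 20.96 CPM in tumor and 2426 ± 526 CPM in blood. The erythroid sum was also lower in tumor and ran from 5260 to 66924 CPM over the blood libraries. The part of red cells in Slc40a1 was not tested.

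Sensors of microbes were lower for 8 of 20 (5 with lane as a term) and higher for 5. Cd14, the lipopolysaccharide coreceptor, had 3686, 3818, 2565 and 7077 CPM in tumor, against 789, 672, 1085 and 1551 CPM in blood (log2 fold change 2.07 ± 0.38 SE, adjusted p = 0.000315). Myd88, the adaptor of most Toll-like receptors, had 145, 244, 117 and 208 CPM in tumor, against 1211, 765, 761 and 706 CPM in blood (log2 fold change -2.27 ± 0.24 SE, adjusted p = 4.2e-07). Tlr13, a receptor of bacterial RNA, was lower (-1.26; not past the threshold with lane added to the fit, adjusted p = 0.107), Clec4n, dectin 2, was higher (log2 fold change 2.26, adjusted p = 1.82e-05), and Tlr2 and Tlr4 did not pass (-0.24 and -0.17). Of 6 Fc receptor genes, Fcgrt, the neonatal Fc receptor (3.62), Fcgr2b, the inhibitory IgG receptor (2.05), and Fcgr1, the high-affinity IgG receptor of macrophages (3.20; not past the threshold with lane added to the fit or without tumor replicates 1 and 3 together, adjusted p = 0.12 to 0.14), were higher. Fcer1g, the signaling chain of activating Fc receptors, was lower (-0.98).

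Transcription factors of granulocytes were higher for 9 of 20 and lower for 6. Spi1, which encodes PU.1, had 471, 616, 355 and 576 CPM in tumor, against 2723, 1842, 2000.0 and 1787 CPM in blood (log2 fold change -2.05 ± 0.20 SE, adjusted p = 1.82e-07). Cebpb, the C/EBP family member of emergency granulopoiesis, had 1704, 2975, 2099 and 3712 CPM in tumor, against 1162, 1385, 1355 and 1671 CPM in blood (log2 fold change 0.91 ± 0.22 SE, adjusted p = 0.0043). Klf2, a Krüppel-like factor of quiescent leukocytes, fell by 1.42 on the log2 scale, and Myc, a driver of growth, averaged 69.8 ± 42.1 CPM in tumor and 2.31 ± 1.05 CPM in blood (log2 fold change 4.92, adjusted p = 7.08e-05). Survival and death genes split evenly, 6 higher and 6 lower of 20. Bcl2a1b and Bcl2a1d, near-identical copies of the anti-apoptotic A1 gene with uncertain shares of reads, had log2 fold changes of 4.21 and 4.45. Pmaip1, the pro-apoptotic NOXA, averaged 266 ± 38.03 CPM in tumor and 84.4 ± 27.5 CPM in blood (log2 fold change 1.65, adjusted p = 1.32e-05). Gsdme, a gasdermin cut by caspase 3, fell, with 12.6, 33.6, 12.5 and 26.5 CPM in tumor, against 256, 205, 206 and 122 CPM in blood (log2 fold change -3.21 ± 0.34 SE, adjusted p = 5.25e-07). Mcl1, on which neutrophil survival depends, did not pass (log2 fold change -0.20, standard error 0.22).

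Liver and brain libraries of tumor mice show where the tumor libraries differed from libraries of neutrophils sorted from other digested tissues. Vegfa averaged 640.1 ± 117 CPM in tumor, 243 ± 87.3 CPM in liver and 52.8 ± 7.51 CPM in brain, and passed against both (tumor over liver 1.40, adjusted p = 0.000934, and tumor over brain 3.60, adjusted p = 3.09e-08). Tpi1 averaged 668 ± 145 CPM in tumor, 157 ± 23.7 CPM in liver and 113 ± 25.6 CPM in brain, and also passed against both (tumor over liver 2.09, adjusted p = 7.94e-07, and tumor over brain 2.56, adjusted p = 3.09e-08). Cd274 averaged 405 ± 62.7 CPM in tumor, 184 ± 81.4 CPM in liver and 25.8 ± 9.9997 CPM in brain (tumor over liver 1.14, adjusted p = 0.0314, and tumor over brain 3.97, adjusted p = 1.62e-07). In these genes the tumor was above both other tissues. Ly6g and Padi4 were lower in tumor than in liver and in brain. Ly6g averaged 6.65 ± 5.55 CPM in tumor, 129 ± 42.01 CPM in liver and 363 ± 102 CPM in brain (tumor over liver -4.27, adjusted p = 1.64e-05, and tumor over brain -5.77, adjusted p = 4.58e-07). Padi4 averaged 29.2 ± 9.01 CPM in tumor, 326 ± 141 CPM in liver and 718 ± 180.5 CPM in brain (tumor over liver -3.48, adjusted p = 1.1e-06, and tumor over brain -4.62, adjusted p = 3.09e-08). Others did not pass against liver. Cxcl2 averaged 11632 ± 4519.9 CPM in tumor, 18386 ± 6229 CPM in liver and 10168 ± 2148 CPM in brain (tumor over liver -0.66, adjusted p = 0.398, and tumor over brain 0.19, adjusted p = 0.859). Egr1 averaged 5771 ± 2493 CPM in tumor, 3565 ± 871 CPM in liver and 1979.7 ± 558 CPM in brain (tumor over liver 0.69, adjusted p = 0.491, and tumor over brain 1.54, adjusted p = 0.0749). The summed immediate early genes went the other way, with medians of 38955 CPM in tumor, 62073 CPM in liver and 67975 CPM in brain. Their ranges overlapped, and the difference of these sums was not tested. Ptgs2 averaged 1633 ± 425 CPM in tumor, 2256 ± 445 CPM in liver and 664 ± 301 CPM in brain (tumor over liver -0.47, adjusted p = 0.501, and tumor over brain 1.30, adjusted p = 0.0263). Il1a averaged 1016 ± 504 CPM in tumor, 618 ± 392 CPM in liver and 18.99 ± 9.09 CPM in brain (tumor over liver 0.72, adjusted p = 0.559, and tumor over brain 5.74, adjusted p = 3.69e-05). Il1b was lower in tumor than in liver (tumor over liver -1.13, adjusted p = 0.021). Hspa1b was higher in tumor than in both, averaging 149 ± 42.9 CPM in tumor, 20.3 ± 6.93 CPM in liver and 17.7 ± 2.43 CPM in brain (tumor over liver 2.88, adjusted p = 0.000683, and tumor over brain 3.08, adjusted p = 0.000216). The marker sums of other cells also differed between these tissues. The epithelial sum was 1173 to 3949 CPM in tumor, 191 to 489.7 CPM in liver and 151 to 189 CPM in brain. The macrophage sum was 6855 to 11069.6 CPM in tumor, 3481 to 4985 CPM in liver and 2293 to 7789 CPM in brain. The neutrophil identity sum was 10149 to 25601 CPM in tumor, 50503 to 70126 CPM in liver and 69975 to 105246 CPM in brain. The part of these cells in the values of Vegfa, Tpi1, Cd274, Hspa1b, Ly6g and Padi4 was not tested. Brain and liver pieces were digested too, for a time that differed in brain. The study's methods also list a Percoll step for brain and liver, to remove myelin or debris, and red cell lysis for liver. They list neither step for tumor, so these preparations differed by more than digestion time.

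**Figure D5:**
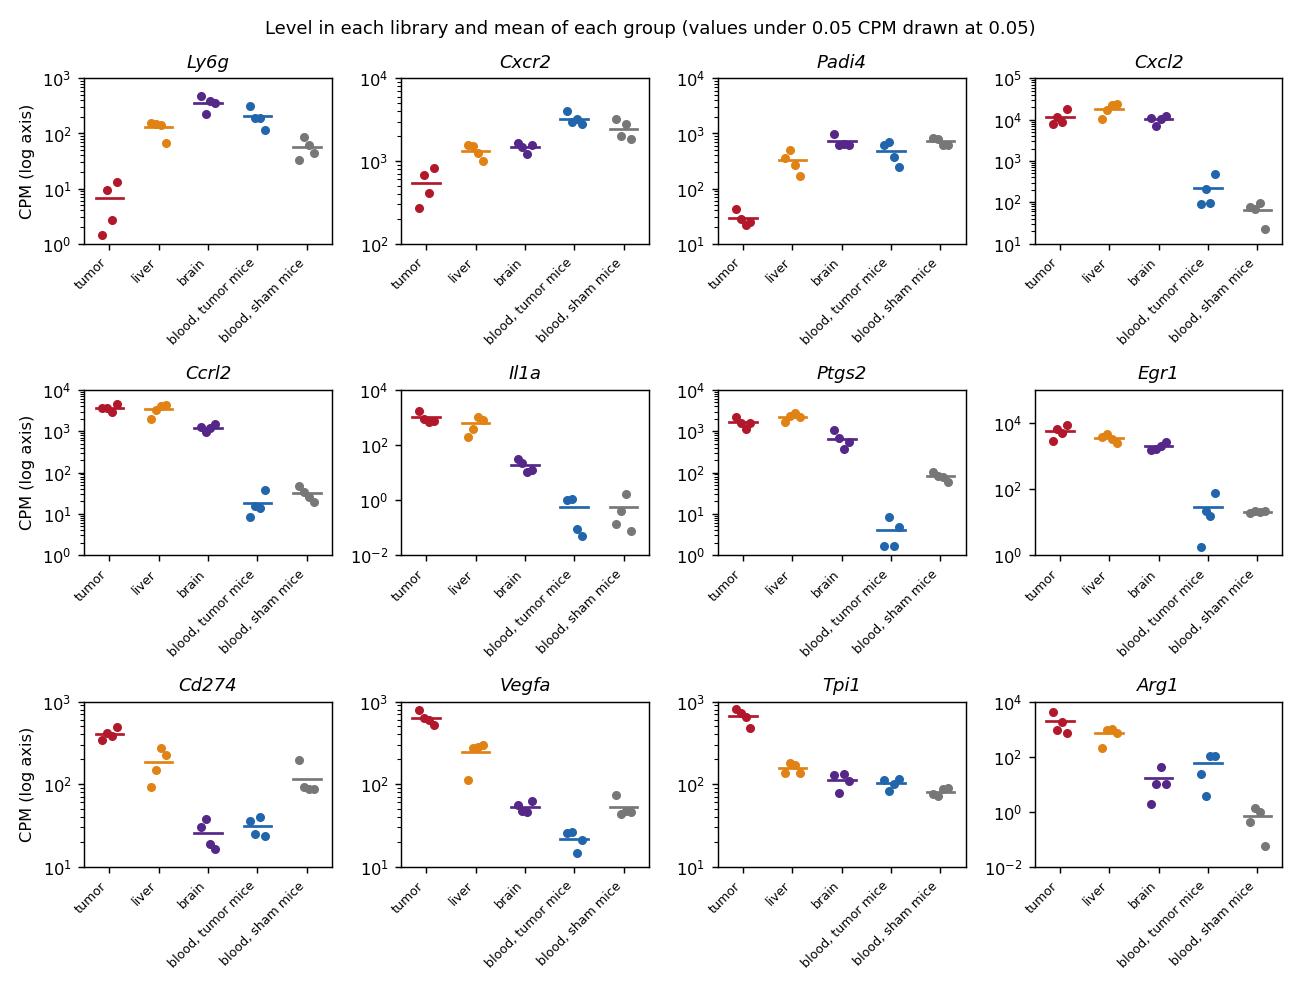
CPM of 12 genes in each library on log axes, 1 panel a gene, with the groups in the order tumor, liver, brain, blood of tumor mice and blood of sham mice, and a bar at each group mean (values under 0.05 CPM are drawn at 0.05). Ly6g, Cxcr2 and Padi4 are lowest in tumor, Vegfa, Cd274 and Tpi1 are highest in tumor, and Cxcl2, Ccrl2, Egr1 and Ptgs2 lie at like heights in tumor and liver and far lower in the blood of tumor mice.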

How the data were processed

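RNA was taken from neutrophils sorted as live, single CD11b-high Ly6G-high cells, amplified with the SMART-Seq v4 kit, which does not mark strand, and sequenced as single reads on an Illumina HiSeq 2500. The deposited counts are whole-number reads per Ensembl gene that the authors made without normalization. The submitters' processing notes name mm10 and DESeq2. Aligner and counting rule: not given in the sources used here. Reads of paralogs or overlapping genes may therefore be split in an unknown way. A deposited table of log2 (rlog) values was not used here.

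Of 51918 entries, 6 identical repeats were dropped. Missing symbols (1918) and 26 symbols turned into dates were looked up in GENCODE M21, which restored 1776, and positions are from GENCODE M21 on mm10. The 28762 genes with a count in at least 1 of the 20 libraries were scaled by TMM and fitted with the quasi-likelihood model of edgeR 4.0.16 (R 4.3.3) over all 20 libraries by group (15 residual and 6.48 prior degrees of freedom). P-values were two-sided and adjusted by Benjamini-Hochberg over all tested genes. Called genes had an adjusted p under 0.05 and a log2 fold change of 2 or more in size. Fold bounds use a floor of 3 counts over the group. The test was tried on simulated counts first.

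Named were the sorted markers and calprotectin, the 12 largest rises and falls among called genes of at least 50 CPM without overlap, up to 3 most abundant and 2 most changed passing members of each of 32 process lists, and the 2 most abundant tumor members of each of 11 marker lists. Further list members were named after their values were seen. A few genes that this rule names are not reported here. The comparison and the lists were chosen with earlier results of these data known. One list gene was not found in the table. Alternatives were DESeq2 1.42.0 and its size factors, filterByExpr, the 8 or 16 libraries alone, lane as a term, the replicate number as a block, no fold threshold, and each library left out. Leaving out tumor replicates 1 and 3 together was added after seeing the data, as were the 16 libraries without a block.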

Additional observations from a re-analysis of the deposited data

Results flagged for a closer look

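In all, 16 of 456 groups of 4 libraries had 1 library far from the other 3, by a gap rule that chance meets in about 1 group in 20. The 456 include groups of named genes that stayed under 10 CPM. The rule skipped these, so fewer groups were examined. In the tumor group, replicate 5 was the highest for Anxa1 (549 CPM), Fth1 (17576 CPM), Mmp8 (906 CPM) and the summed secondary and tertiary granule genes (14635 CPM), iron and heme genes (23022 CPM) and acinar genes (91.2 CPM). It was the lowest for Ido1 (5.62 CPM). Tumor replicate 1 was the highest for Cxcl1 (560.5 CPM), for the summed arginine, tryptophan, prostaglandin and adenosine enzymes (7578 CPM) and for the summed T and NK cell genes (26.7 CPM). Tumor replicate 3 was the lowest for Fcer1g (509 CPM).

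In the blood group of tumor mice, replicate 1 was the highest for Il1rn (324 CPM) and Myd88 (1211 CPM) and the lowest for the summed chemokine genes (4165 CPM). Blood replicate 4 was apart for Hspa5 (577 CPM) and Tap2 (125 CPM).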

How the results depend on the processing

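Over the alternatives with all 8 compared libraries kept, the higher and lower genes numbered 2962 and 824 with DESeq2 size factors, 2888 and 1041 with filterByExpr, 2829 and 798 over the 8 libraries, 2719 and 860 over the 16 libraries of tumor mice, and 3400 and 1076 in DESeq2. Lane as a term gave 1665 higher genes, of which 1495 were among the 2732, and 671 lower genes, of which 603 were among the 940. Leaving out 1 library gave 2160 to 2857 higher and 749 to 1020 lower genes. Without tumor replicates 1 and 3 there were 1598 higher and 595 lower genes, of which 1570 and 490 were called before. Without a fold threshold 3833 were higher and 2973 lower. Same-numbered tumor and blood libraries had deviations that correlated at -0.058, 0.055 and 0.002 for numbers 1, 2 and 3, so no pairing by number was seen. With the replicate block, 2739 genes were higher and 874 lower.

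Of 185 named genes, 149 kept their direction and their side of the threshold under all 16 alternatives. The log2 fold change of Nkg7 was -1.13 with lane as a term, -0.58 with the replicate block, -1.80 (without tumor replicate 1) to 0.75 with 1 library left out, where it was -0.015 without blood replicate 2, and -2.39 without tumor replicates 1 and 3. Trac had -0.91 with lane as a term, -0.57 (without tumor replicate 1) to 0.89 with 1 library left out and -0.80 without tumor replicates 1 and 3, Pf4 had -0.43 without tumor replicates 1 and 3, and Cela1 -0.097 with lane as a term. None of these 4 had passed the test, and the cause was not tested. Of the list counts under alternatives, 125 moved by over 1.5 times and 1251 did not. Those of lists with 4 or more called members are given beside the lists, and the others concern counts of 3 or fewer. At this depth, differences between groups that both hold a few counts of a gene were not detectable.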

Other observations

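Of 9 eosinophil, basophil and mast cell genes, 3 were higher and 1 lower, with a median log2 fold change of -2.16. Siglecf, a receptor of eosinophils that some tumor neutrophils are known to carry, had 293, 354, 216 and 191 CPM in tumor, against 119, 70.5, 105 and 79.4 CPM in blood (log2 fold change 1.49 ± 0.25 SE, adjusted p = 0.000116). Il5ra, the interleukin 5 receptor of eosinophils, had 17.3, 14.3, 46.4 and 3.46 CPM in the tumor libraries and no count in blood, at least 1332-fold higher, while Prg2, an eosinophil granule protein, had no count in tumor and averaged 0.0851 CPM in blood. Ighm, the IgM heavy chain, had 803, 39.5, 13.5 and 165 CPM in tumor, against 58.1, 86.9, 46.4 and 44.6 CPM in blood and did not pass (log2 fold change 2.11, adjusted p = 0.0589), with tumor replicate 1 far above the rest. Clec10a, a lectin of macrophages and dendritic cells, averaged 29.9 ± 15.4 CPM in tumor and 3.54 ± 2.62 CPM in blood (log2 fold change 3.08, adjusted p = 0.00488), and Flt1, a VEGF receptor of endothelium and monocytes, 27.6 ± 6.47 CPM in tumor and 1.11 ± 0.936 CPM in blood (log2 fold change 4.64, adjusted p = 9.32e-05).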
